A study of Oryctolagus cuniculus with 9 samples.

Results

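The smooth muscle contractile and adhesion apparatus was followed through 34 genes, all of them found by symbol among the 28788 rows of the count table, and all 34 were among the 17102 genes with enough counts to be tested. They comprise 13 contractile and cytoskeletal proteins, 6 regulators (kinase, phosphatase, calcium store and transcriptional) and 15 adhesion and scaffold proteins. The values come from polyadenylated RNA of rabbit (Oryctolagus cuniculus) urethral tissue, in a study of a hydrogel stent designed to repair the urethra in living animals. The 9 libraries carry the title codes S9, S7 and S6, with 3 libraries each, and are written here as S9_1, S9_2 and S9_4, as S7_2, S7_3 and S7_4, and as S6_2, S6_3 and S6_4. What the codes stand for is not given in the sources used here: no treatment, time after surgery, age, sex, strain, injured or uninjured state or control is attached to any of them, so the comparisons below are between codes. Nothing in the labels tells whether each library is a different animal or whether tissue was pooled, and the p-values cover only the spread between these libraries, which may be technical. Libraries held between 35127085 and 36832773 counted reads and between 19025 and 19417 genes with a count.

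As background, smooth muscle shortens when myosin thick filaments pull on actin thin filaments. Calcium activates the myosin light chain kinase, which phosphorylates the regulatory light chain and switches myosin on, and a phosphatase reverses this. The filaments are anchored in dense bodies in the cytoplasm and in dense plaques at the membrane, where filamin, vinculin and LIM domain proteins link actin to integrins, with rows of caveolae between the plaques. Myocardin, a coactivator of serum response factor, drives many of these genes in smooth muscle. In the urethra they are expressed by the muscle layers of the wall, by vascular smooth muscle and in part by pericytes and myofibroblasts.

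By mean level, most members were highest in S9, intermediate in S7 and lowest in S6, with S9 and S7 libraries overlapping in all 34. Their joint share of all counted reads was 2.35%, 2.9% and 1.63% in S9, 2.56%, 0.981% and 1.38% in S7 and 0.896%, 0.633% and 0.614% in S6, with libraries listed by their number within each code. Levels of single genes are given below as CPM, the reads counted for a gene relative to all reads of its library after scaling between libraries. S9_4, the lowest S9 library, was above every S6 library, whereas S7 ran from a library inside the S9 range (S7_2) down to one just above S6 (S7_3). Of the 34 members, 30 had a mean level in the order S9 above S7 above S6, an order that was not counted over all genes. The exceptions were ACTG2, TAGLN, CASQ2 and CRIP2, whose mean in S7 was at or above that in S9. In tissue RNA, fewer muscle cells and less RNA of these genes per cell cannot be told apart.

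**Figure D1:**
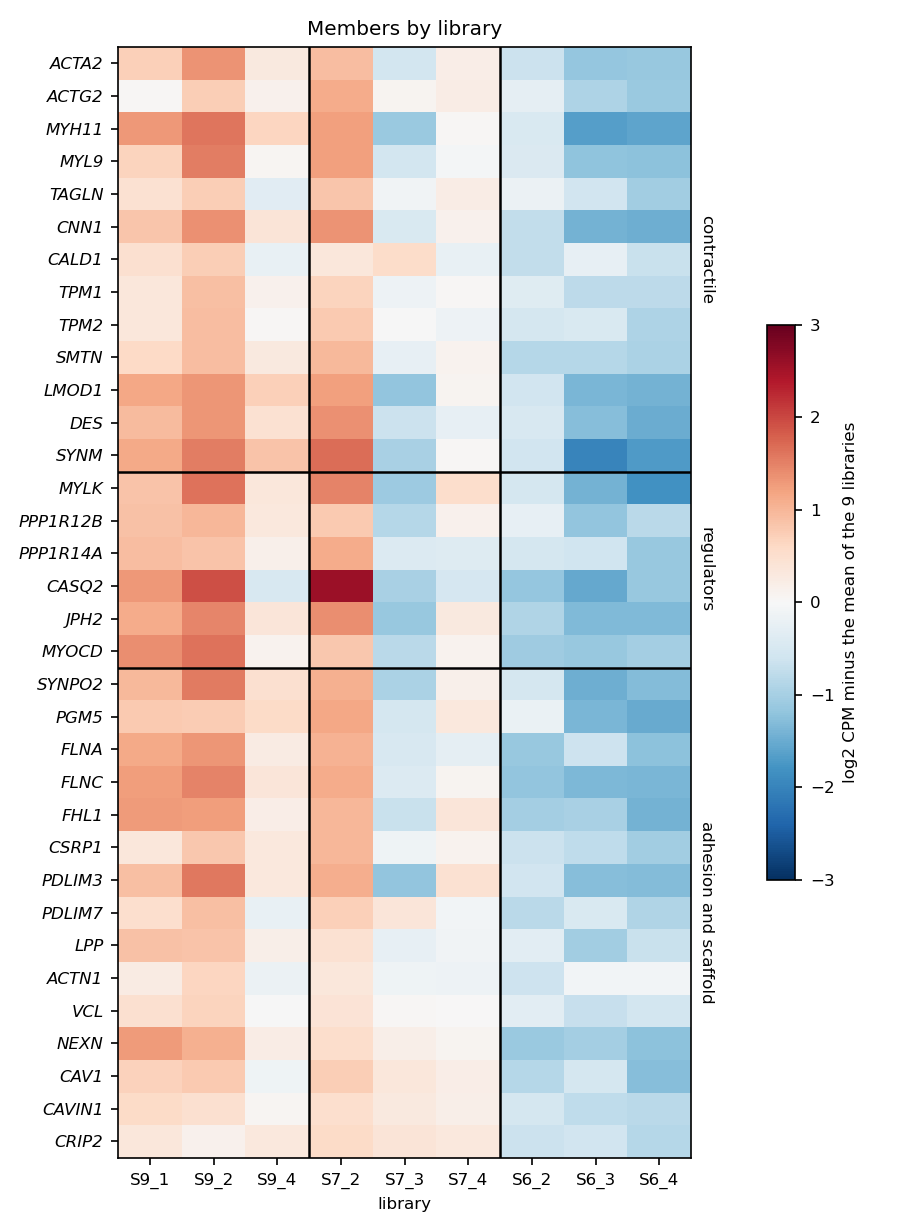
Levels of the 34 members in the 9 libraries, each as log2 CPM minus the gene's mean over the libraries. Rows are genes in 3 role groups and columns are libraries (S9 left, S7 middle, S6 right): S9 and S7_2 are above the gene mean for most members, and the 3 S6 libraries are below it for most.

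Against S6, 24 of the 34 members were higher in S9 and 0 were lower at an adjusted p below 0.05 (edgeR quasi-likelihood test, Benjamini-Hochberg over all 17102 genes). Among all genes tested, 12.4% were called, 6.02% higher and 6.34% lower. The median log2 fold change of the members was 1.70, a fold of 3.26, beside -0.011 for all genes. The values ran from 0.51 for ACTN1 to 2.48 for CASQ2, and all 34 were positive, beside 49.3% of all genes. In 32 members the lowest S9 library was above the highest S6 library, beside 18.6% of all genes, and the exceptions were TAGLN and ACTN1. Without an adjustment, 33 members had a p below 0.05, beside 15.4% of all genes called higher on that scale. The calls rested on few libraries, for the members and for all genes alike. None of the 34 was called without S9_1, S9_2 or S6_4, beside 0, 4 and 113 of all genes. Without S6_3 there were 5, beside 6.11% of all genes, and without S7_4 14, beside 6.75%. Without each of the other 4 libraries between 21 and 31 were called, beside 11.5% to 12.4% of all genes. The fold changes moved less, with a median log2 fold change between 1.41 and 1.96 when each library was left out, and 34 of 34 positive each time.

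In S7 against S6, 1 of the 34 members was called, CRIP2, beside 0.111% of all genes, 0.0468% higher and 0.0643% lower. The median log2 fold change was 1.28, with a range from 0.28 for ACTN1 to 2.52 for CASQ2, and all 34 were positive, beside 48.9% of all genes. Without an adjustment, 32 members had a p below 0.05 and were higher, beside 8.68% of all genes higher and 8.44% lower, and the other two were PPP1R12B and ACTN1. In 22 members the S7 and S6 libraries did not overlap, with S7 higher, beside 10.7% of all genes higher and 10.4% lower. The number of calls depended on the tool: limma-voom with sample weights called 3 members, beside 1.79% of all genes, and DESeq2 21, beside 8.29%. CRIP2 was no longer called by edgeR when any of the 9 libraries was left out. The smallest adjusted p after CRIP2 were those of CAVIN1 (0.0875, log2 fold change 1.03), NEXN (0.0918, 1.39) and CAV1 (0.106, 1.31, edgeR), all proteins of adhesions or caveolae. The median log2 fold change in S7 against S6 was 1.29 for the contractile proteins, 1.47 for the regulators and 1.24 for the adhesion and scaffold proteins.

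In S9 against S7, edgeR, DESeq2 and limma-voom each called 0 members, beside 0% of all genes in edgeR and in limma-voom and 0.719% in DESeq2. Without an adjustment, edgeR gave a p below 0.05 for 2 of the 34 members, both higher in S9 (NEXN and MYOCD), beside 4.15% of all genes higher and 5.06% lower. By role group the median log2 fold change was 0.39 for the contractile proteins, 0.46 for the regulators and 0.24 for the adhesion and scaffold proteins. Over all members it was 0.39, 30 of 34 were positive, beside 50.1% of all genes, and no member had S9 and S7 libraries that did not overlap, beside 8.36% of all genes higher and 8.81% lower without overlap. With limma-voom the members' median was 0.75 and 33 of 34 were positive. There 13 had an unadjusted p below 0.05, beside 21.2% of all genes in either direction. DESeq2 gave a median of 0.39, 30 positive and 3 with an unadjusted p below 0.05, beside 11.8% of all genes. S9 and S7 are both set against the same S6 libraries, so S9 against S6 and S7 against S6 are not independent. In a test of any difference among the 3 codes, 4 members were called (CRIP2, adjusted p = 0.0225, NEXN, 0.0333, CAVIN1, 0.0453, and FLNC, 0.0487, edgeR F test), beside 2.43% of all genes.

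**Figure D2:**
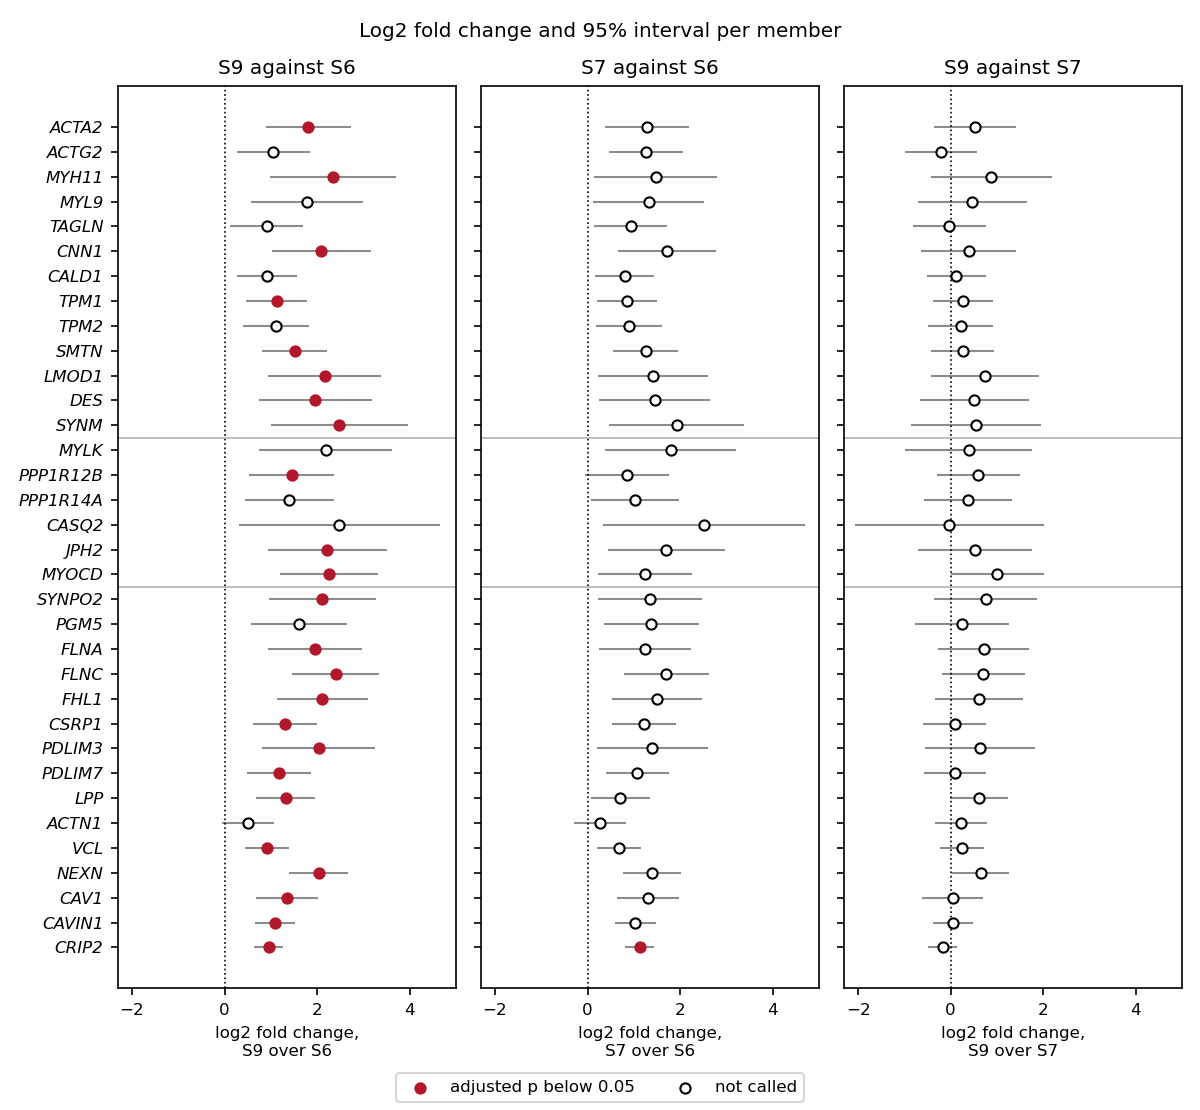
Log2 fold change of each member (points) with its 95% interval (lines) in S9 against S6, S7 against S6 and S9 against S7, with filled points for an adjusted p below 0.05. All 34 points lie above 0 in the left and middle panels, 24 and 1 of them filled, and none is filled in the right panel, where the points lie around a median of 0.39.

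The contractile proteins were among the most abundant members per length. Mean FPKM over the 9 libraries, a unit that divides by gene length and so allows genes to be set side by side, was 1034 for ACTA2, 735 for MYL9, 527 for ACTG2, 401 for TAGLN, 394 for TPM2, 386 for MYH11 and 366 for DES. All 13 were positive in S9 against S6 and 8 were called higher, beside 6.02% of all genes, with a median log2 fold change of 1.79 over all 13. MYH11, the smooth muscle myosin heavy chain, had 4594, 5609 and 2886 CPM in S9, 4366, 852 and 1887 CPM in S7 and 1357, 595 and 615 CPM in S6. ACTA2, the alpha actin of vascular and visceral smooth muscle, had 1923, 2957 and 1433 CPM in S9, 2236, 802 and 1350.2 CPM in S7 and 745, 519 and 532 CPM in S6. MYL9, the regulatory light chain whose phosphorylation starts contraction, had 1141, 2059.6 and 741 CPM in S9, 1676, 485 and 684 CPM in S7 and 529.7, 308 and 303 CPM in S6. In each of these genes the 3 S9 libraries were above the 3 S6 libraries, S7_2 lay within the S9 range, and S7_3 was within the S6 range for MYH11 and MYL9 and just above it for ACTA2. MYH11 rose 5.1-fold in S9 against S6 (log2 fold change 2.35, SE 0.60, adjusted p = 0.0398, edgeR) and ACTA2 3.51-fold (log2 fold change 1.81, SE 0.41, adjusted p = 0.0293), while MYL9 did not pass the threshold (log2 fold change 1.79, SE 0.53, adjusted p = 0.0584). ACTG2, the gamma actin of visceral smooth muscle, had 672, 1082 and 712 CPM in S9, 1408, 685 and 755 CPM in S7 and 541, 343 and 301 CPM in S6. Here S7_2 was the highest of all libraries and S7 overlapped S9, and the S9 libraries were above the S6 libraries without reaching the threshold (log2 fold change 1.06, SE 0.35, adjusted p = 0.0776, edgeR). Actin genes are near-identical in sequence, and reads of ACTA2, ACTG2 and other actins could be left uncounted or split between them by the counting, as could reads of the tropomyosins.

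Thin filament regulators and associated proteins followed the same order. CNN1, calponin, which binds actin and restrains the myosin motor, had 436, 634 and 318 CPM in S9, 618, 177 and 265 CPM in S7 and 145, 90.6 and 88.8 CPM in S6. TPM1, a tropomyosin wound along the actin filament, had 1182, 1749 and 1011 CPM in S9, 1473, 840.1 and 961 CPM in S7 and 723, 544 and 543 CPM in S6. SMTN, smoothelin, a protein of contractile rather than proliferating smooth muscle, had 403, 504 and 323 CPM in S9, 519, 222 and 285 CPM in S7 and 147, 147 and 137 CPM in S6. In each of the 3 genes all S7 libraries were above all S6 libraries, and S7_3 was the lowest of S7. LMOD1, a leiomodin that nucleates actin filaments, had 287, 322 and 211 CPM in S9, 298, 56.6 and 134 CPM in S7 and 85.8, 49.4 and 47.9 CPM in S6, so that S7_3 lay within the S6 range and S7_2 within the S9 range. In S9 against S6, CNN1 rose 4.27-fold (adjusted p = 0.0299), LMOD1 4.47-fold (0.0363), SMTN 2.85-fold (0.0244) and TPM1 2.18-fold (0.0392, edgeR). DES, desmin, the main intermediate filament of muscle, had 786, 1012 and 559 CPM in S9, 1050.3, 259 and 343 CPM in S7 and 291, 168 and 145 CPM in S6. SYNM, synemin, which co-assembles with desmin, had 320.3, 425 and 266 CPM in S9, 464, 74.4 and 149 CPM in S7 and 99, 37.4 and 44.9 CPM in S6. Both intermediate filament genes were highest of all libraries in S7_2, and S7_3 lay within S6. DES rose 3.9-fold in S9 against S6 (log2 fold change 1.96, SE 0.54, adjusted p = 0.0465, edgeR) and SYNM 5.57-fold (log2 fold change 2.48, SE 0.65, adjusted p = 0.0425).

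The other contractile members did not pass the threshold in S9 against S6. TAGLN, transgelin, an actin-binding protein of early and mature smooth muscle, averaged 569 ± 197 CPM in S9, 579 ± 196 CPM in S7 and 303 ± 89.2 CPM in S6 (SD, n = 3 each), and S9_4 lay below S6_2. Caldesmon (CALD1), which inhibits the actomyosin motor and is also made by non-muscle cells, averaged 318 ± 98.8 CPM in S9, 292 ± 76 CPM in S7 and 168 ± 32.3 CPM in S6. TPM2, a second tropomyosin, averaged 879 ± 289 CPM in S9, 756 ± 278 CPM in S7 and 406 ± 67.8 CPM in S6. Their log2 fold changes in S9 against S6 were 0.91, 0.92 and 1.12, with adjusted p = 0.116, 0.0647 and 0.0509 (edgeR). CALD1 was the single member for which S7_2 was not the highest S7 library.

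**Figure D3:**
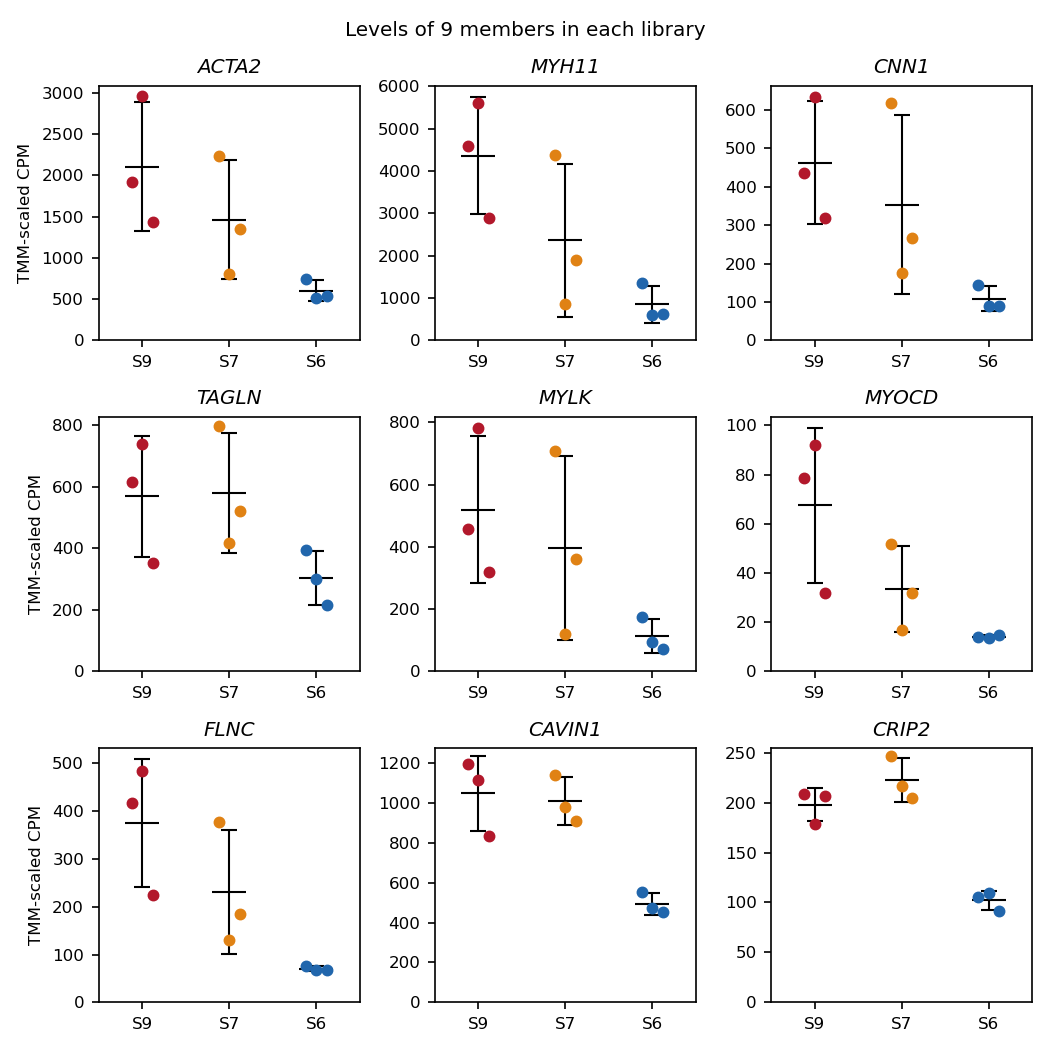
Level of 9 members in each library, as TMM-scaled CPM on linear axes that start at 0, with 1 point per library and, for each code (S9 left, S7 middle, S6 right), the mean and SD of its 3 libraries as horizontal line and whiskers. The S9 points lie above the S6 points for all but TAGLN, and the S7 points are spread widely for MYH11 (852 to 4366 CPM) and narrowly for CRIP2 (205 to 247 CPM).

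The 6 regulators had the largest median log2 fold change in S9 against S6 of the 3 role groups, 2.20. CASQ2, JPH2 and MYOCD, of the calcium store and of transcription, had 2.48, 2.22 and 2.26. The kinase MYLK had 2.19, and the phosphatase regulators PPP1R12B and PPP1R14A had 1.46 and 1.40, below the contractile median of 1.79. All 6 were positive, and 3 were called higher, beside 6.02% of all genes: PPP1R12B, JPH2 and MYOCD. MYLK, the light chain kinase, had 458, 781 and 319 CPM in S9, 708, 119 and 361 CPM in S7 and 175, 94.6 and 71.9 CPM in S6. PPP1R12B, a targeting subunit of the myosin phosphatase, had 249.8, 274 and 170.5 CPM in S9, 234, 75.2 and 149 CPM in S7 and 114, 60.1 and 78.4 CPM in S6. PPP1R14A, an inhibitor of that phosphatase, had 54.2, 51.7 and 32.2 CPM in S9, 62.3, 21.7 and 22 CPM in S7 and 20.1, 19 and 13.1 CPM in S6. For all of these, the 3 S9 libraries were above the 3 S6 libraries and S7_2 lay within or above S9, while S7_3 lay within S6 for MYLK and PPP1R12B. The kinase and both phosphatase regulators had positive fold changes in S9 against S6, but only PPP1R12B passed the threshold (log2 fold change 1.46, SE 0.41, adjusted p = 0.0491, edgeR). The adjusted p was 0.0544 for MYLK, with a log2 fold change of 2.19, and 0.0617 for PPP1R14A, with 1.4. JPH2, a junctophilin that holds the calcium store membrane close to the cell surface, had 25.8, 32.9 and 15.3 CPM in S9, 31.4, 5.43 and 14.6 CPM in S7 and 6.37, 4.72 and 4.77 CPM in S6. MYOCD, myocardin, had 78.7, 92 and 31.9 CPM in S9, 51.9, 16.9 and 31.7 CPM in S7 and 14.1, 13.5 and 14.8 CPM in S6. MYOCD was nearly level across the S6 libraries, and S7_4 and S9_4 were almost equal to each other. In S9 against S6, JPH2 rose 4.66-fold (log2 fold change 2.22, SE 0.57, adjusted p = 0.0393) and MYOCD 4.78-fold (log2 fold change 2.26, SE 0.46, adjusted p = 0.0248, edgeR). CASQ2, a calsequestrin that buffers calcium in the store, was the least abundant member at a mean of 2.66 FPKM. It averaged 9.04 ± 6.01 CPM in S9, 9.25 ± 11.9 CPM in S7 and 1.61 ± 0.243 CPM in S6 (SD, n = 3 each), with 23 CPM in S7_2 against 1.99 CPM in S7_3. Its spread was wide, and its log2 fold change of 2.48 in S9 against S6 had a 95% interval from 0.31 to 4.66 (adjusted p = 0.117, edgeR).

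All 15 adhesion and scaffold members were positive in S9 against S6 and 13 were called higher, beside 6.02% of all genes. The median log2 fold change was 1.36 over all 15. The filamins cross-link actin and bind integrin tails. FLNA, made in most cells, had 1590.1, 1795 and 849 CPM in S9, 1468, 515 and 597 CPM in S7 and 328, 464 and 304 CPM in S6. FLNC, the muscle filamin, had 416, 484 and 225 CPM in S9, 377, 129.8 and 184 CPM in S7 and 76.8, 68.7 and 66.8 CPM in S6. In both genes all S7 libraries were above all S6 libraries, with S7_2 within S9. FLNC rose 5.3-fold in S9 against S6 (log2 fold change 2.41, SE 0.42, adjusted p = 0.0195, edgeR) and FLNA 3.86-fold (log2 fold change 1.95, SE 0.45, adjusted p = 0.0308). SYNPO2, a synaptopodin that binds actin at dense bodies, had 309, 467 and 219 CPM in S9, 329.7, 82.2 and 176 CPM in S7 and 109, 56.7 and 64.2 CPM in S6, with S7_3 within S6, and rose 4.33-fold (adjusted p = 0.0342, edgeR).

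The LIM domain and PDZ-LIM proteins bind actin, actinin or focal adhesions. FHL1 had 1211, 1193 and 569 CPM in S9, 991, 315 and 641 CPM in S7 and 248, 253 and 187 CPM in S6. CSRP1, a LIM protein of smooth muscle cytoskeleton, had 683, 954 and 673 CPM in S9, 1089.6, 497 and 584 CPM in S7 and 348, 320.4 and 265 CPM in S6. PDLIM3 had 231, 366 and 153 CPM in S9, 261, 54.3 and 169 CPM in S7 and 82.2, 50.9 and 50.3 CPM in S6. For FHL1 and CSRP1 the S7 libraries were all above S6, and for PDLIM3 S7_3 fell within S6. PDLIM7 had 221, 291 and 134 CPM in S9, 256, 200.1 and 148 CPM in S7 and 88.9, 114 and 83.3 CPM in S6. LPP, which shuttles between focal adhesions and the nucleus, had 415, 408 and 254 CPM in S9, 308, 189 and 209 CPM in S7 and 180.05, 109 and 142 CPM in S6. CRIP2, a small LIM domain protein, had 208, 179 and 206 CPM in S9, 247, 216 and 205 CPM in S7 and 106, 109.8 and 91.4 CPM in S6. The S9 and S7 libraries of CRIP2 overlapped each other, and every one of them was above the 3 S6 libraries, with a ratio of highest to lowest library of 1.17 in S9, 1.21 in S7 and 1.2 in S6. It was higher in S9 against S6 (log2 fold change 0.95, SE 0.14, adjusted p = 0.0146) and in S7 against S6 (log2 fold change 1.12, SE 0.14, adjusted p = 0.0445, edgeR, a call lost when any 1 library was left out), and S9 against S7 had a log2 fold change of -0.17 with a 95% interval from -0.48 to 0.14. FHL1 rose 4.32-fold in S9 against S6, PDLIM3 4.09-fold, LPP 2.5-fold, CSRP1 2.47-fold and PDLIM7 2.26-fold, with adjusted p between 0.0248 for FHL1 and 0.0436 for PDLIM3 (edgeR).

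Vinculin, nexilin and the caveola proteins also rose in S9 against S6. VCL, vinculin, which links actin to talin at adhesions, had 374, 427 and 265 CPM in S9, 355, 275 and 270.05 CPM in S7 and 216, 166 and 182 CPM in S6. NEXN, nexilin, an actin-binding protein of adhesions, had 28.9, 24.6 and 13.9 CPM in S9, 17, 13.5 and 12.5 CPM in S7 and 5.5, 5.84 and 5.07 CPM in S6. In both genes every S7 library was above every S6 library, and the S7 libraries lay close together. CAV1, caveolin, the coat protein of caveolae, had 663, 715 and 374 CPM in S9, 692, 525 and 476 CPM in S7 and 227, 287 and 169.6 CPM in S6. CAVIN1, which stabilises that coat, had 1193, 1112 and 835 CPM in S9, 1141, 977 and 908 CPM in S7 and 553, 472 and 452 CPM in S6. The 2 caveola genes were close to equal in S9 and S7, with log2 fold changes of 0.050 and 0.053 in S9 against S7 and 95% intervals from -0.61 to 0.71 and from -0.38 to 0.48. In S9 against S6, NEXN had the smallest adjusted p of the 34 (log2 fold change 2.04, SE 0.28, adjusted p = 0.0132), and CAVIN1 (log2 fold change 1.09, SE 0.19, adjusted p = 0.0196), CAV1 (log2 fold change 1.36, SE 0.30, adjusted p = 0.0272) and VCL (log2 fold change 0.92, SE 0.21, adjusted p = 0.0305) also passed (edgeR). PGM5, an adhesion protein related to phosphoglucomutase that binds at dense plaques, and ACTN1, a non-muscle alpha-actinin, did not pass. PGM5 averaged 361 ± 29 CPM in S9, 305 ± 171 CPM in S7 and 118 ± 62.8 CPM in S6 (SD, n = 3 each), with an adjusted p of 0.0509 in S9 against S6. ACTN1 averaged 272 ± 75.8 CPM in S9, 232 ± 46 CPM in S7 and 191 ± 38.4 CPM in S6, and the range of S9 overlapped that of S6 (log2 fold change 0.51, 95% interval -0.058 to 1.07, adjusted p = 0.203, edgeR).

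For the contractile proteins and the regulators, taken by their medians, the S7 libraries differed from each other more than the libraries of the other codes did. TAGLN and CALD1 were exceptions, with a ratio of highest to lowest library of 2.09 and 1.92 in S9 and of 1.91 and 1.71 in S7. The ratio of the highest to the lowest library had a median over the 34 members of 1.92 in S9, 2.86 in S7 and 1.49 in S6, beside 1.48, 1.47 and 1.64 over all genes in S9, S7 and S6. In S7 the ratio was above 2 for 22 members (64.7%), beside 30.6% of all genes. S7_2 was the highest S7 library for 33 members (97.1%, beside 35.2% of all genes) and S7_3 the lowest for 25 (73.5%, beside 36.2%). The order S7_2 above S7_4 above S7_3 held for 25 members and was not counted over all genes. S7_2 lay within the S9 range or above it for all 34 members, beside 77.6% of all genes, and above every S9 library for 10, beside 22.8%. Relative to the mean of S6, the members' median fold was 3.64 in S7_2, 1.36 in S7_3 and 1.95 in S7_4. S7_4 was above every S6 library for 33 members, all but ACTN1, beside 25.2% of all genes. These counts by library were chosen after the values were seen, and they describe single libraries without a test.

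The spread within S7 differed between members. The median ratio of highest to lowest library was 1.87 in S9, 2.79 in S7 and 1.75 in S6 for the contractile proteins. For the regulators it was 2.3 in S9, 4.45 in S7 and 1.44 in S6. For the adhesion and scaffold proteins it was 1.91 in S9, 1.73 in S7 and 1.36 in S6, so S7 was not the widest there. S7_3 lay within the S6 range for 12 members, beside 48.7% of all genes. They were MYH11, MYL9, LMOD1, DES and SYNM among the contractile proteins, MYLK, PPP1R12B and JPH2 among the regulators, and SYNPO2, PGM5, PDLIM3 and ACTN1 among the adhesion proteins. For these, apart from ACTN1, S7_2 exceeded S7_3 between 3.11-fold in PPP1R12B and 6.24-fold in SYNM. CRIP2, CAVIN1, VCL, NEXN and CAV1, all of the adhesion group, were raised over S6 in all S7 libraries, and their highest and lowest S7 libraries differed between 1.21-fold in CRIP2 and 1.45-fold in CAV1. S7_3 was above every S6 library for 8 of 13 contractile proteins, 3 of 6 regulators and 11 of 15 adhesion and scaffold proteins, beside 26.1% of all genes. Leaving out S7_2 took the members' median log2 fold change in S7 against S6 to 0.78, and leaving out S7_3 took it to 1.5. Without S7_2 the median log2 fold change of S9 against S7 was 1.02, and 19 members had an unadjusted p below 0.05, beside 13.9% of all genes in either direction, with 0 called (edgeR).

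**Figure D4:**
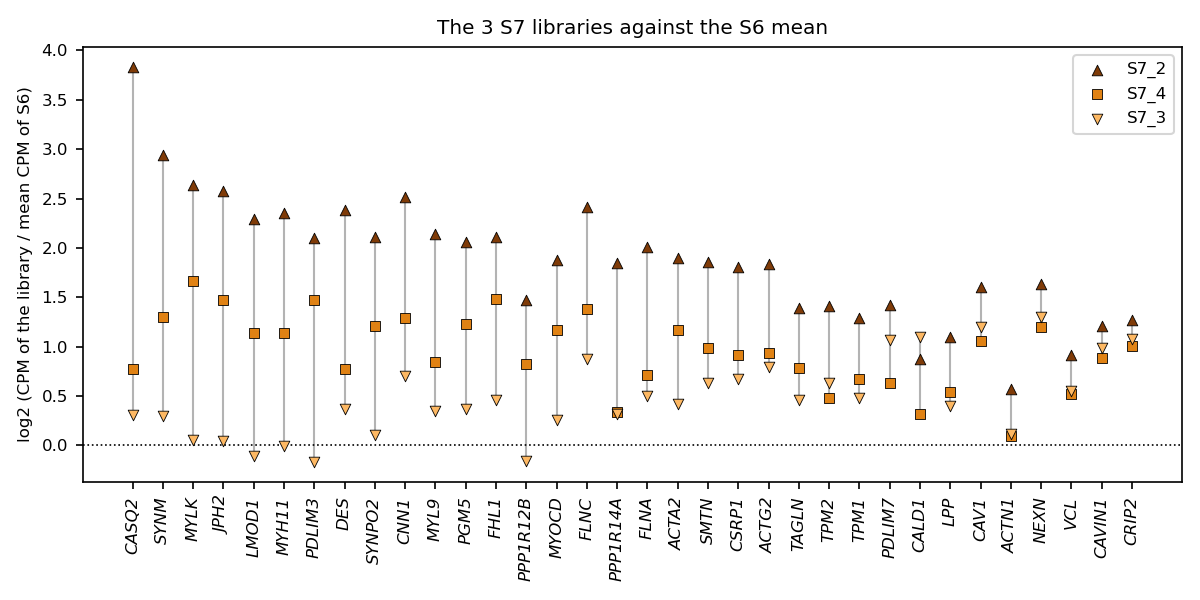
Level of each member in S7_2, S7_3 and S7_4 as log2 fold over the mean of the S6 libraries, with 1 column of 3 points per member, joined by a line and ordered from the widest spread at the left to the narrowest at the right. S7_2 is the topmost point for 33 of 34 members, and the points lie closest together for CRIP2, CAVIN1 and VCL.

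Ratios of FPKM within a library were set side by side for 5 pairs of members of like kind. With 3 libraries against 3 the smallest p an exact two-sided permutation test can give is 0.1, and after adjustment over the 15 ratio tests no p was below 0.30. The ratio of the visceral to the alpha actin, ACTG2 to ACTA2, was 0.344, 0.361 and 0.49 in S9, 0.62, 0.841 and 0.551 in S7 and 0.715, 0.651 and 0.558 in S6. It was lower in every S9 library than in every S7 and S6 library (S9 against S6 log2 difference -0.70, exact p = 0.1, and S9 against S7 -0.75, exact p = 0.1). The ratio of the myosin heavy to the light chain, MYH11 to MYL9, was 0.733, 0.495 and 0.709 in S9, 0.474, 0.32 and 0.502 in S7 and 0.466, 0.351 and 0.37 in S6, higher in every S9 library than in every S6 library (log2 difference 0.70, exact p = 0.1). FLNC to FLNA was 0.225, 0.232 and 0.227 in S9, 0.22, 0.216 and 0.264 in S7 and 0.201, 0.127 and 0.189 in S6, and S6 was the lowest (S9 against S6 0.43 and S7 against S6 0.46, exact p = 0.1 for both). TPM2 to TPM1 averaged 1.42 in S9, 1.47 in S7 and 1.44 in S6, with overlapping libraries. The phosphatase inhibitor to the kinase, PPP1R14A to MYLK, averaged 0.944 in S9, 1.02 in S7 and 1.64 in S6, and S9 overlapped S6 (exact p = 0.2). MYH11 and MYLK are long (6618 and 7890 bases), MYL9 and PPP1R14A short (1204 and 773). In the longest decile of genes tested, the median log2 level against the gene mean averaged 0.18 in S9 and -0.13 in S6. In the shortest decile it averaged -0.13 in S9 and 0.15 in S6. The ratios were not corrected for this, and its part in them was not tested.

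Other genes of the pathway, in 4 lists with 77 tested genes, moved in part with the members. In S9 against S6, 30 of the 77 rose and 2 fell at an adjusted p below 0.05, beside 6.02% of all genes higher and 6.34% lower. The median log2 fold change of the 77 was 0.71, beside -0.011 for all genes. The same shares of all genes stand beside each list below. Among the other actin, myosin and thin filament genes 4 of 11 rose and 1 fell, among the other regulators of contraction 7 of 19 rose, among serum response factor coactivators and related transcription factors 3 of 13 rose and 1 fell, and among the other adhesion, dense plaque and caveola genes 16 of 34 rose. TNS1, tensin, which ties actin to integrins, averaged 667 ± 159.6 CPM in S9, against 182 ± 14.5 CPM in S6 (SD, n = 3 each, log2 fold change 1.88, adjusted p = 0.0138, edgeR). MYH10, a non-muscle myosin heavy chain, averaged 126 ± 38 CPM in S9, against 51.7 ± 2.63 CPM in S6 (log2 fold change 1.29, adjusted p = 0.0181). FERMT2, a kindlin that activates integrins, averaged 163 ± 45.4 CPM in S9, against 53.5 ± 13.5 CPM in S6 (log2 fold change 1.61, adjusted p = 0.019). The dystrophin complex members SGCD and SGCE rose as well, with log2 fold changes of 2.09 and 1.29, as did PALLD, palladin, an actin cross-linker (log2 fold change 1.6, adjusted p = 0.0198, edgeR). The 2 genes that fell were TPM3, a tropomyosin of non-muscle and slow muscle cells, with 77.9 ± 12.6 CPM in S9, against 122 ± 11 CPM in S6 (log2 fold change -0.65, adjusted p = 0.0299), and FHL2, a LIM protein, with 80.6 ± 16.5 CPM in S9, against 145 ± 26.4 CPM in S6 (log2 fold change -0.85, adjusted p = 0.039, edgeR). In S7 against S6 edgeR called 0 of the 77. At an unadjusted p below 0.05 (edgeR), 32 were higher and 2 lower, beside 8.68% of all genes higher and 8.44% lower. DESeq2 called 18 higher and 1 lower and limma-voom 3 higher, beside the shares of all genes given above for these tools. In S9 against S7 edgeR, DESeq2 and limma-voom each called 0 of the 77. At an unadjusted p below 0.05 in edgeR, 9 were higher and 2 lower, beside 4.15% of all genes higher and 5.06% lower.

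Markers of other cell types were summed per library in CPM. Striated muscle markers gave 2.51, 12.8 and 6.75 in S9, 4.06, 3.21 and 3.68 in S7 and 5.07, 3 and 7.85 in S6. Of 17 such markers 11 were in the table, MYH1 and MYH4 were at 0 in every library, ACTA1 reached at most 4.96 CPM, and 1 of 6 tested, NEB, was called higher in S9 against S6. The summed striated markers were thus at or under 12.8 CPM in every library, below MYH11, ACTA2 and MYL9, whose lowest library had 303 CPM (MYL9 in S6_4). They were above CASQ2 in S9_4, S7_3, S7_4 and every S6 library, and above JPH2 and NEXN in S6_4. Pericyte markers gave 1825, 1623 and 1249.96 in S9, 1581, 957 and 1254 in S7 and 795, 704 and 597 in S6. Of the 8, 3 (RGS5, NOTCH3 and CSPG4) were called higher in S9 against S6, beside 6.02% of all genes. Of the others, PDGFRB, KCNJ8 and ABCC9 had log2 fold changes of 0.40, 0.64 and 0.16, and HIGD1B and NDUFA4L2 of -1.15 and -2.00, none of them called. Fibroblast markers gave 44106, 53336 and 40260.2 in S9, 49481, 105271 and 60009 in S7 and 35714, 46032 and 28534 in S6, with 0 of 9 called by edgeR in S9 against S6 (2 at an unadjusted p below 0.05, and 2 called higher by DESeq2 and by limma-voom) and the highest sum in S7_3, the S7 library with the fewest reads in the members. Most of that sum was COL1A1, COL1A2 and COL3A1 (35155, 27789 and 33317 CPM in S7_3). These collagens, LUM and DPT were highest of all libraries in S7_3. DCN, PI16 and FBLN1 went the other way, with their lowest S7 value there (2640, 1020 and 625 CPM). PDGFRA had 197 CPM in S7_2 and in S7_3. Leukocyte markers gave 207, 367 and 409.6 in S9, 1005, 2809.99 and 2386 in S7 and 5572, 7503 and 4528 in S6. Of the 10, 9 were called lower in S9 against S6, beside 6.34% of all genes, opposite to the members. Epithelial markers ranged from 3452 to 6043 CPM in S9, from 4738 to 6004 in S7 and from 3626 to 6062 in S6, with 2 of 10 (KRT18 and KRT15) called higher in S9 against S6. Of the other 8, 7 had negative log2 fold changes that were not called, from -1.4 for ELF3, -1.05 for CLDN4 and -0.99 for EPCAM to -0.22 for KRT13, and TP63 had 0.28. Endothelial markers ranged from 1051 to 2324 CPM in S9, from 938 to 2205 in S7 and from 1199 to 1467 in S6, with 1 of 6 (CLDN5) called higher. The part that these cell types had in the members' values was not tested.

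**Figure D5:**
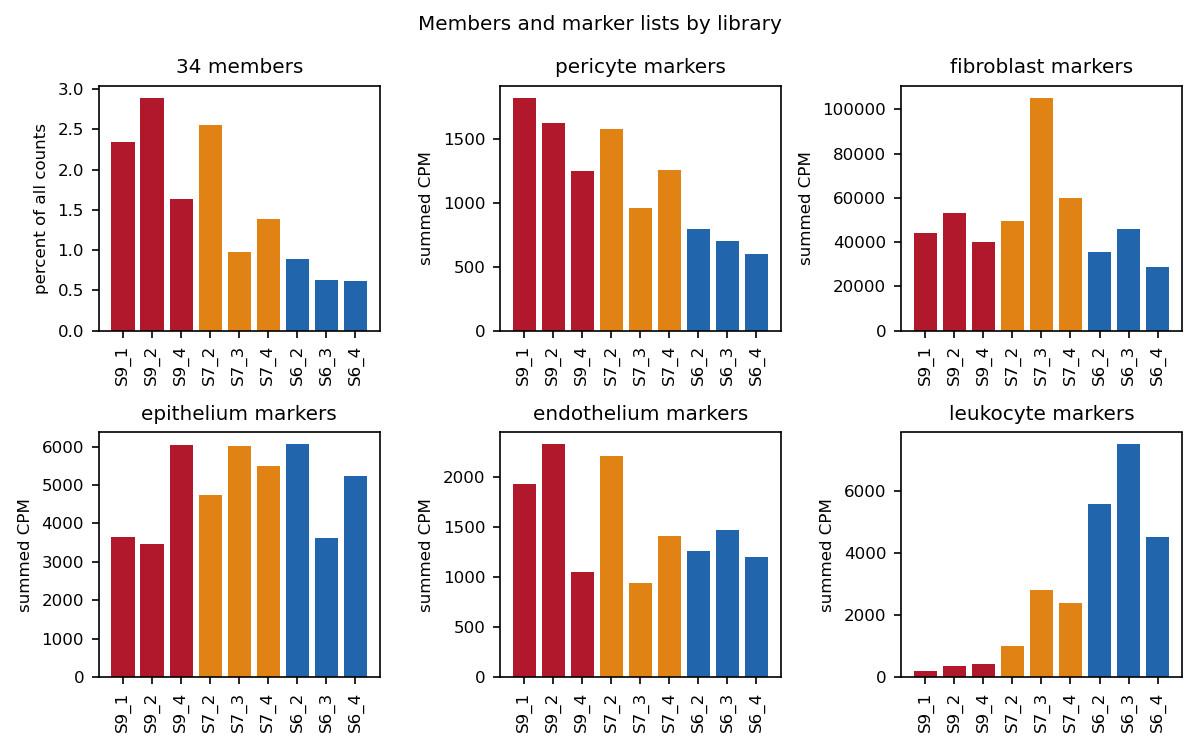
Share of all counts taken by the 34 members (first panel) and summed CPM of the pericyte, fibroblast, epithelium, endothelium and leukocyte markers (other panels), with 1 bar per library on linear axes from 0 (S9 left, S7 middle, S6 right). The members and the pericyte markers are higher in every S9 library than in every S6 library, the leukocyte markers are lower, and the fibroblast sum is highest in S7_3.

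The libraries also fell into 2 classes by their mitochondrially encoded reads, whose share of the counts was 1.52%, 1.01% and 0.419% in S9, 0.91%, 0.304% and 1.32% in S7 and 1.15%, 0.959% and 0.243% in S6. Each code had 1 library of the low class (S9_4, S7_3 and S6_4) and 2 of the high class. The low-class library was the lowest of its code for 32 members in S9, 25 in S7 and 22 in S6 (94.1%, 73.5% and 64.7%, beside 37.5%, 36.2% and 30.1% of all genes). Within the low class, S9_4 exceeded S6_4 for 33 of 34 members (beside 50.6% of all genes), with a median log2 difference of 1.29, and S7_3 exceeded S6_4 for 32 (beside 51.2%), with a median of 0.73. S9_4 exceeded S7_3 for 26 (beside 50.9%), with a median of 0.59. Within the 6 high-class libraries alone, the median log2 fold change of the members in S9 against S6 was 1.78, with 34 of 34 positive. Of the members, 33 had an unadjusted p below 0.05, beside 25.2% of all genes in either direction, and 0 were called after adjustment, beside 7 of all 17102 genes (edgeR). With the class as a term in the fit of all 9 libraries, 30 members were called, beside 12.5% of all genes.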

How the data were processed

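Libraries were built from polyadenylated RNA with the SMARTER mRNA kit, per the labels' protocols. The deposited table holds raw read counts per gene, and the authors also deposited FPKM values, read counts relative to the library total and to gene length, which were used to set genes side by side. Per the submitters' processing notes, fastp, HISAT2 and HTSeq were used. Versions, build, annotation and strand setting are not given there or in the labels, so no coordinates are printed. Reads of overlapping or near-identical genes may be left uncounted, split or shared. For rows without a symbol, 515 were named by gene ID from RefSeq assembly mOryCun1.1. All columns were mapped by name.

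Genes passing edgeR's filterByExpr (minimum count 10, minimum total 15) were scaled by TMM and fitted in 1 model of 3 groups with the robust quasi-likelihood method (edgeR 4.0.16, R 4.3.3, 6 residual degrees of freedom, biological coefficient of variation 41.9%). P-values were adjusted by Benjamini-Hochberg over all 17102 genes, with a threshold of 0.05. Levels are TMM-scaled CPM, and each SE and 95% interval was worked out from the F statistic. The test was also run on simulated counts, drawn with less spread between libraries than the 41.9% above. Its errors and power at the spread of these data were not checked. limma 3.58.1 and DESeq2 1.42.0 served as alternatives, with other scalings, filters, a replicate block, a length correction, the mitochondrial class and each library left out.

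The members, the other gene lists, the tests and the alternatives were chosen with earlier results of these data known. All members are named. Per-library values are given for members called in any comparison and for the 3 of each role group with the highest mean FPKM, and of the other pathway genes up to 6 called per direction and comparison, in order of p, are named. Marker genes were named where called or at 0 in every library, except the called leukocyte markers, which were only counted. ACTA1 and others of the pericyte, fibroblast and epithelium lists were named after their values were seen.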

Additional observations from a re-analysis of the deposited data

How the results depend on the processing

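In S9 against S6 and in S7 against S6 all 34 members stayed positive under every alternative run. The number called in S9 against S6 was between 20 and 33 under the other scalings, filters and tools, the length correction, the class term and the 2 codes alone. The number of members called was 0 in the 6 libraries of the high mitochondrial class, beside 7 of all genes. It was from 0 to 31 when each library was left out, beside 0% to 12.4% of all genes. In S7 against S6 the count of 1 became 21 with DESeq2, 3 with limma-voom, 0 with the class term, 0 in the 6 libraries, 0 with the 2 codes alone and 0 without each library, and the count over all genes moved with it, from 19 to 1417 with DESeq2, 306 with limma-voom and at most 10 without each library. Among the 3 codes together, 4 became 31 with DESeq2, 30 with limma-voom, 8 with the class term, 0 in the 6 libraries and 0 to 11 when each library was left out. Over all genes, 415 became 3305, 2347, 553, 0 and 0 to 638 under the same alternatives. The cause was not tested.

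Replicate numbers are not stated to mark animals, and the deviations of same-numbered libraries from their code's mean correlated over all genes with r from -0.0649 to 0.138. A library correlated best with its own number in 8 of 14 cases, a hint from the data and not from the design, so the numbers were not taken as a pairing. With the replicate block, 0 members were called in S9 against S6, 0 in S7 against S6, 0 in S9 against S7 and 0 among the 3 codes. Of all genes, 16, 1 and 0 were called in the 3 pairs of codes (edgeR). At an unadjusted p below 0.05, 32, 32 and 0 members were higher in these pairs, beside 21.4%, 17.7% and 4.15% of all genes in either direction (edgeR). The members' median log2 fold change under the block was 1.37 in S9 against S6. S9_1 is the sole library numbered 1 and carries no weight under the block.

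In S9 against S7 the small differences changed sign in places. On the log2 scale, ACTG2 was 0.013, TAGLN 0.15 and CASQ2 1.22 with limma-voom. With limma-trend, TAGLN was 0.032 and CASQ2 0.33 on log2(FPKM + 1), and 0.032 and 0.57 on log2(FPKM + 0.1). With the block, CAV1 was -0.036 and CAVIN1 -0.083. With the class term, CASQ2 was 0.030 and CAV1 -0.0067. In the 6 libraries, TAGLN was 0.037, PGM5 -0.016 and CSRP1 -0.033. With the length correction, TAGLN was 0.11 and CASQ2 0.019. Leaving out each library gave log2 fold changes of -0.46 to 0.21 for ACTG2, -0.087 to 0.37 for CALD1, -0.58 to 1.95 for CASQ2, -0.12 to 0.31 for CAV1, -0.038 to 0.21 for CAVIN1, -0.11 to 0.53 for CSRP1, -0.012 to 1.19 for MYL9, -0.032 to 1.13 for MYLK, -0.18 to 0.36 for PDLIM7, -0.072 to 0.78 for PGM5, -0.26 to 0.30 for TAGLN, and -0.076 to 0.58 for TPM2.

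Ratios within a library changed sign in the same way, with log2 differences of -0.13 to 0.18 for ACTG2 to ACTA2 and -0.012 to 0.31 for MYH11 to MYL9 in S7 against S6, of -0.083 to 0.061 for FLNC to FLNA and -0.46 to 0.33 for PPP1R14A to MYLK in S9 against S7, and for TPM2 to TPM1 of -0.10 to 0.14 in S9 against S6, -0.057 to 0.19 in S7 against S6 and -0.15 to 0.017 in S9 against S7. The members' median log2 fold change in S9 against S7 was 0.15 to 1.02 when each library was left out, and the causes were not tested. CASQ2, with 44 to 843 counted reads per library, had the largest SE of the 34 in each comparison.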
